A study of Mus musculus with 12 samples.

Results

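The genes described here are 31 genes of the type I interferon response, read in the left ventricle of mice 3 days after injection of a hydrogel, with or without an inhibitor of a microRNA, or of saline. They were chosen by name, from a list of antiviral effectors, RNA and DNA sensors, transcription factors and feedback regulators. All 31 were among the 38293 genes of the deposited count table, and all 31 were among the 14770 genes with enough counts to be tested. Polyadenylated RNA was sequenced from 12 left ventricles of healthy C57BL/6J mice that had received 2 intramyocardial injections of 10 µl each. The 4 hearts of the Upy-PEG + antimiR-195 group received Upy-PEG loaded with antimiR-195, an oligonucleotide against the microRNA miR-195. The 4 hearts of the Upy-PEG group received the gel with no drug, and the 4 hearts of the PBS group received phosphate-buffered saline with no drug. Upy-PEG is a poly(ethylene glycol) carrying ureidopyrimidinone groups, which associate into a supramolecular hydrogel. All 3 groups were therefore injected hearts, and no uninjected heart was analysed here. The labels give no age, sex, litter or batch and do not state that each library is a separate animal, so p-values measure the spread between these libraries. Replicate numbers follow the order of deposition and pair nothing across groups.

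Type I interferons are secreted proteins that signal through the receptor chains IFNAR1 and IFNAR2 and the kinases JAK1 and TYK2. These activate transcription factors, among them STAT2 with IRF9, which bind a response element in the promoters of many target genes, most of them antiviral. Sensors such as RIG-I (gene Ddx58), MDA5 (Ifih1) and ZBP1 detect foreign or misplaced nucleic acid and start interferon production, and interferon in turn induces the sensors. In the injured heart, macrophages that take up nucleic acid of dead cells are a known source of this response. Interferon-γ, a type II interferon made mostly by lymphocytes, acts through a receptor of its own and shares part of the target genes.

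The promoters of some of these genes carry letters bound in that response, shown here as a description. Whether these letters have a part in how the genes moved across the libraries was not tested. The core letters GAAANNGAA (TTCNNTTTC on the other strand) are part of the element bound by interferon regulatory factors. RefSeq promoter windows on GRCm38.p6, from 250 bases before to 50 bases after the gene start, were found for 22 of the 31 genes, and 14 of these 22 (63.6%) hold the core on either strand. The same letters are in 9.76% of 27025 genes with such a window, in 23 of 45 other interferon-induced genes (51.1%) and in 11 of 13 interferon-γ genes (84.6%), so they are not particular to the 31. In the stretches below, read 5′ to 3′ on the strand of the gene, capitals mark each match on either strand, and matches that overlap run together.
Isg15: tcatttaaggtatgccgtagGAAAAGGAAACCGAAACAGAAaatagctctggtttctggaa
Ifit1: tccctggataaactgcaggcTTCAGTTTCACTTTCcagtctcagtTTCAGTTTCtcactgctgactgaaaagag
Ifit3: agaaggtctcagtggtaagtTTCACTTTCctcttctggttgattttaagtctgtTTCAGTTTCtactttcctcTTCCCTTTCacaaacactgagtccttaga
Ifit3b: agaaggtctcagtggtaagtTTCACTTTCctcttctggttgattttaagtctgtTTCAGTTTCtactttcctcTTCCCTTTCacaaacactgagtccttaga
Oas1a: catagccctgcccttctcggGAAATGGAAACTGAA
Bst2: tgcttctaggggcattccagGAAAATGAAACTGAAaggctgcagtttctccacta
Rsad2: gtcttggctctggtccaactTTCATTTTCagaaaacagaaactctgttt
The Isg15 stretch lies at chr4:156200856-156200916 on the minus strand and holds 3 overlapping matches, from 78 to 58 bases before the gene start. The Ifit1 stretch (chr19:34640760-34640833, plus strand) holds 3 matches, the first of them 109 bases before the start. The stretches of Ifit3 (chr19:34583354-34583455, plus strand) and its neighbour Ifit3b (chr19:34607750-34607851, plus strand) are equal in 102 of 102 bases. The Oas1a stretch (chr5:120907531-120907565, minus strand) holds 2 matches and ends 6 bases before the start. The Bst2 stretch (chr8:71537568-71537622, minus strand) also holds 2, and that of Rsad2 (chr12:26456543-26456591, minus strand) holds 1. With no match in their windows, Irf7, Irf9, Ifit2, Oasl1, Oasl2, Xaf1, Ifi35 and Cmpk2 only lack these letters there.

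The 31 genes were expressed at low to moderate levels in every group. On the deposited RPKM scale, reads scaled by gene length and library size, which allows levels to be compared between genes, Ifi27l2a stood highest. It had 115 ± 35.6 RPKM in Upy-PEG + antimiR-195, 108 ± 26.1 in Upy-PEG and 67.9 ± 12.8 in PBS hearts (SD, n = 4 each). Bst2, which encodes tetherin, a membrane protein that holds budding virus at the cell surface, had 39.6 ± 15.3, 40.9 ± 16.03 and 27.3 ± 4.67 RPKM in the same order of groups. Isg15, a ubiquitin-like protein joined to other proteins, had 11.9996 ± 4.43 RPKM in Upy-PEG + antimiR-195, 14.03 ± 8.29 in Upy-PEG and 8.92 ± 1.67 in PBS hearts. At the low end, Oas3 had 0.596 ± 0.139, 1.04 ± 0.778 and 0.474 ± 0.246 RPKM, and Ifi44 had 0.893 ± 0.218, 1.29 ± 0.778 and 0.797 ± 0.181 RPKM in these groups. The SD was widest in the Upy-PEG group for most of them, and 1 library of that group, described next, lay above its other 3. Counts behind a gene in a library ran from 28 (Oas3 in PBS replicate 1) to 2584 (Parp14 in Upy-PEG replicate 1), where the libraries held 22353241 to 30278621 counted reads.

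One library, Upy-PEG replicate 1, stood apart in this response. Earlier results of these data had already shown this, and the 31 genes were chosen with those results known. The counts that follow are therefore a description and no test. Upy-PEG replicate 1 is the library meant in the next sentences. It was the highest of the 12 libraries for 28 of the 31 genes, where it was the highest for 17.2% of all tested genes. It exceeded the next library by at least 0.5 on the log2 scale for 25 of the 31, against 2.28% of all tested genes. As the mean over the 31 genes of log2 CPM (counts scaled to CPM after TMM scaling of library sizes, with a prior count of 2), taken as a difference from the mean of the 12 libraries, it lay at 1.003. The other 11 libraries lay between −0.43 and 0.17. The 3 genes in which another library was highest were Ifi27l2a, Ifi35 and Bst2, all of them highest in Upy-PEG + antimiR-195 replicate 2. Among the other 11 libraries, PBS replicate 3 was highest for 12 of the 31 genes and had the largest mean difference, 0.17. PBS replicates 1 and 2 were at the low end, with −0.43 and −0.31, and Upy-PEG + antimiR-195 replicate 1 was at −0.34.

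**Figure D1:**
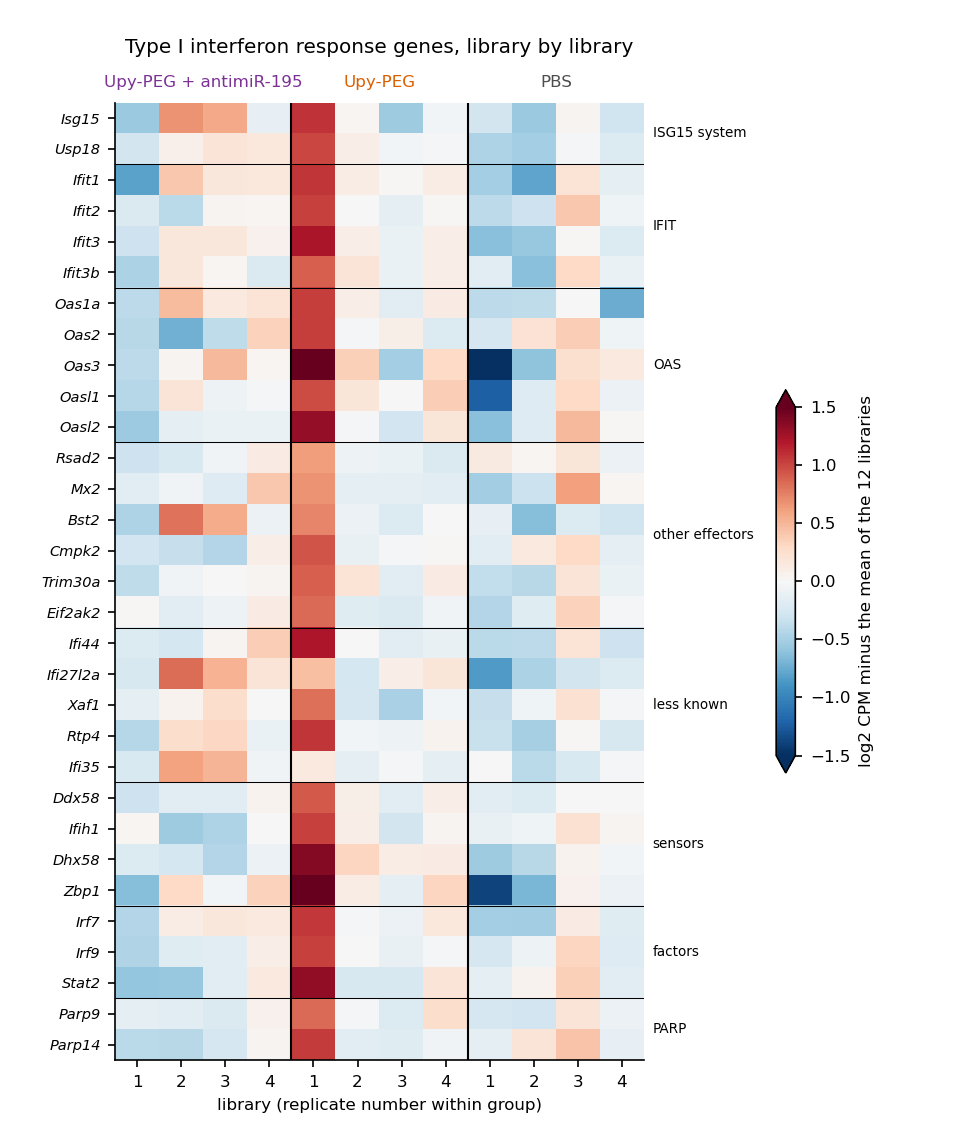
Each row is 1 of the 31 genes, grouped by role, and each column 1 library (Upy-PEG + antimiR-195, Upy-PEG, PBS). Colour gives log2 CPM minus that gene's mean over the 12 libraries, red for above and blue for below. The column of Upy-PEG replicate 1 is red in all 31 rows, and the columns of PBS replicates 1 and 2 are mostly blue.

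The first comparison asks whether the gel itself changes these genes relative to a saline injection. In Upy-PEG hearts all 31 genes had a mean above that of PBS hearts, where 44.7% of all tested genes had. The median log2 fold change over the 31 was 0.47, against −0.03 over all tested genes. No gene passed an adjusted p of 0.05 in edgeR's quasi-likelihood test, neither among the 31 (0 of 31) nor among all 14770 (0%). At an unadjusted p under 0.05, 12 of the 31 were higher and 0 lower, with 9.33% of all tested genes higher and 3.83% lower at that level. The 12 were Dhx58, Ifi27l2a, Ifit1, Ifit3, Irf7, Oas1a, Oas3, Oasl1, Rtp4, Trim30a, Usp18 and Zbp1. DESeq2 called 2.11% of 23961 genes and limma voom with sample weights 6.22% of 14770 in this comparison, and each called 0 of the 31. With Upy-PEG + antimiR-195 replicates 2 and 3 left out of the fit, edgeR called 2.31% of 15135 genes in this same comparison, and 0 of the 31.

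The size of this difference moved most without Upy-PEG replicate 1. That library was the highest of the 12 for most of the 31 genes, so smaller values follow from leaving it out. Without it, 22 of the 31 genes were higher in the remaining Upy-PEG hearts than in PBS hearts (47.8% of all genes tested in that fit), and the median log2 fold change was 0.12. At an unadjusted p under 0.05, Dhx58 and Ifit3 remained, 2 of 31, beside 6.17% of all genes. The count of 12 also moved to 5 without PBS replicate 1, to 5 without PBS replicate 2 and to 7 without PBS replicate 4. Leaving out PBS replicate 3 instead raised the median log2 fold change to 0.60. With limma voom, which gave libraries unequal weights, the median was 0.19 and 3 of the 31 were higher at that level. No share of all genes is given for limma voom or for the fits without a PBS replicate. Their counts are therefore no result about the 31. Upy-PEG and PBS hearts overlapped in every gene but Dhx58, while 5.91% of all tested genes had Upy-PEG hearts wholly above PBS hearts.

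**Figure D2:**
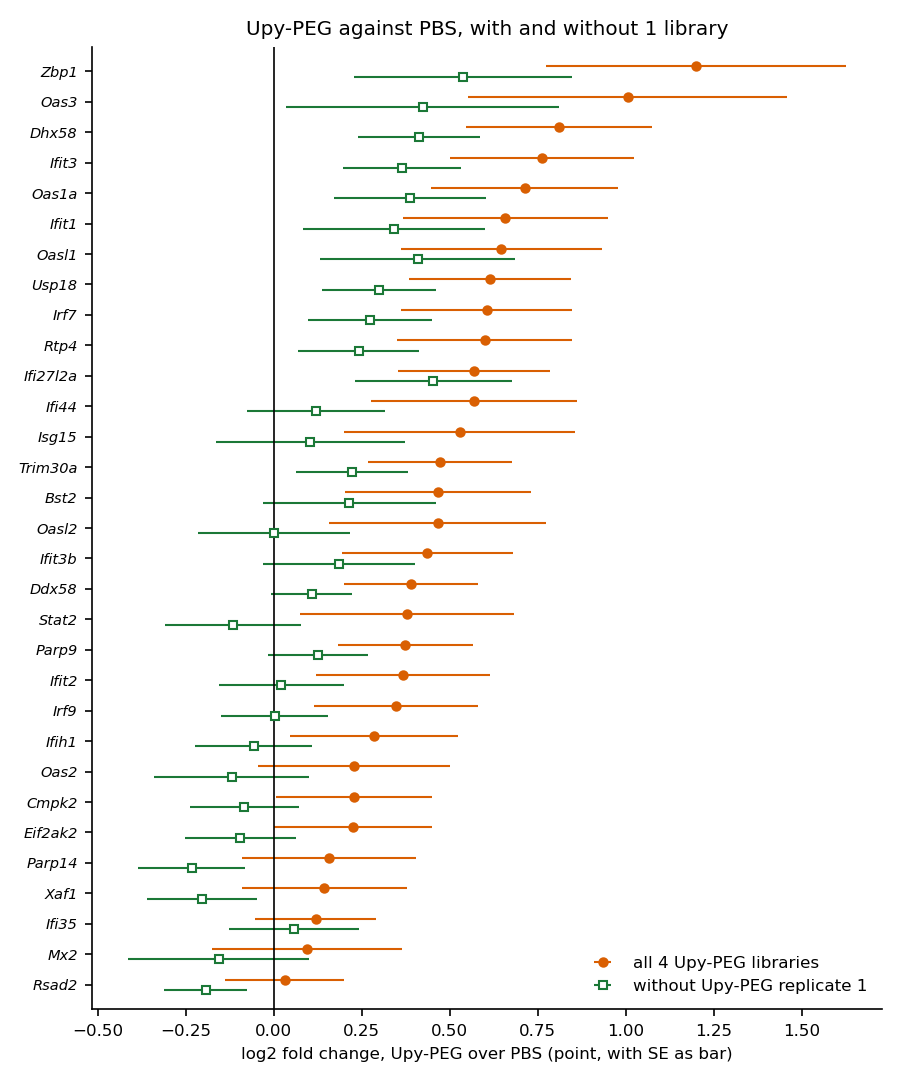
Points give the log2 fold change of Upy-PEG over PBS for each of the 31 genes and bars its SE, from edgeR, with all 4 Upy-PEG libraries (filled circles) and without replicate 1 (open squares). All 31 circles lie right of 0, and 22 of the 31 squares do.

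In the ubiquitin-like system, Isg15 (ENSMUSG00000035692) had 5.52, 12.995, 12.1 and 7.47 CPM in Upy-PEG + antimiR-195 hearts, 17.3, 8.29, 5.63 and 7.90 CPM in Upy-PEG hearts, and 6.71, 5.56, 8.37 and 6.61 CPM in PBS hearts. Upy-PEG replicate 1 was highest, followed by Upy-PEG + antimiR-195 replicates 2 and 3, and the groups overlapped. Upy-PEG over PBS gave a log2 fold change of 0.53 ± 0.33 (SE), at an adjusted p of 0.555 in edgeR. Usp18, the protease that removes ISG15 and damps signalling at IFNAR2, had 5.15, 6.54, 7.09 and 6.97 CPM in Upy-PEG + antimiR-195 hearts, 12.5, 6.64, 6.03 and 6.13 CPM in Upy-PEG hearts, and 4.53, 4.37, 6.16 and 5.42 CPM in PBS hearts. Apart from Upy-PEG replicate 1, the libraries of both gel groups ran from 5.15 to 7.09 CPM and overlapped with PBS. Its log2 fold change of Upy-PEG over PBS was 0.61 ± 0.23 (adjusted p = 0.251), and 0.30 ± 0.16 without replicate 1 (adjusted p = 0.67).

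The IFIT genes encode proteins that bind viral RNA lacking the host's cap marks. Ifit1 had 7.98, 18.4, 15.6 and 15.5 CPM in Upy-PEG + antimiR-195 hearts, 29.2, 14.97, 14.05 and 14.96 CPM in Upy-PEG hearts, and 9.74, 8.02, 16.1 and 12.7 CPM in PBS hearts. Ifit3 had 11.3, 15.7, 15.7 and 14.6 CPM in Upy-PEG + antimiR-195 hearts, 32.7, 15.002, 13.1 and 14.96 CPM in Upy-PEG hearts, and 9.06, 9.42, 14.2 and 12.1 CPM in PBS hearts. In both, Upy-PEG replicate 1 had the highest value, Upy-PEG + antimiR-195 replicate 1 and PBS replicates 1 and 2 were the lowest, and the other libraries of the 3 groups overlapped. Upy-PEG over PBS gave a log2 fold change of 0.66 ± 0.29 for Ifit1 (adjusted p = 0.352) and 0.76 ± 0.26 for Ifit3 (adjusted p = 0.208). Ifit3 kept a log2 fold change of 0.37 ± 0.17 without replicate 1 (adjusted p = 0.595). Ifit2 ranged from 15.2 to 20.8 CPM in Upy-PEG + antimiR-195, 18.2 to 41.1 in Upy-PEG and 15.3 to 26.7 in PBS hearts. Ifit3b ranged from 3.06 to 4.78, 3.97 to 7.92 and 2.76 to 5.25 CPM in the same groups. Ifit3 and Ifit3b share 51.2% of the 50-base stretches of Ifit3's annotated transcripts. Reads that fit both are not counted for either, so these 2 genes are uncertain as separate measurements.

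The OAS enzymes make 2′-5′-linked oligoadenylate on double-stranded RNA, which activates RNase L. The OAS-like proteins Oasl1 and Oasl2 are related members of the family. Oas2 had 14.9, 12.1, 15.3 and 25.2 CPM in Upy-PEG + antimiR-195 hearts, 40.7, 19.5, 21.2 and 17.3 CPM in Upy-PEG hearts, and 16.7, 23.2, 25.6 and 18.99 CPM in PBS hearts. Without Upy-PEG replicate 1 the Upy-PEG hearts lay inside the range of PBS. The log2 fold change of Upy-PEG over PBS was 0.23 ± 0.27 (adjusted p = 0.793), and −0.12 ± 0.22 without replicate 1. Oas1a, Oas3 and Oasl1 were among the 12 genes at an unadjusted p under 0.05. Oas3, the lowest of the family by RPKM, had 2.37 to 4.35 CPM in Upy-PEG + antimiR-195, 2.18 to 9.98 in Upy-PEG and 0.912 to 3.66 in PBS hearts. Oas1a shares 57.6% of its 50-base stretches with other transcripts, mostly those of Oas1g and Oas1b, and is uncertain for the same reason as Ifit3.

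The remaining effectors differed in how far Upy-PEG replicate 1 stood out. Rsad2 (viperin), which makes a chain-terminating nucleotide, had 20.6, 21.7, 24.5 and 27.7 CPM in Upy-PEG + antimiR-195 hearts, 39.3, 24.1, 23.8 and 21.98 CPM in Upy-PEG hearts, and 27.95, 26.1, 29.02 and 23.9 CPM in PBS hearts. Outside that library, its highest values were in PBS replicates 3 and 1. Its log2 fold change of Upy-PEG over PBS was 0.03 ± 0.17 (adjusted p = 0.962), and −0.19 ± 0.12 without replicate 1. Eif2ak2 (PKR), a kinase that halts translation on double-stranded RNA, had 17.3, 15.3, 16.2 and 18.5 CPM in Upy-PEG + antimiR-195 hearts, 30.8, 15.002, 14.6 and 16.4 CPM in Upy-PEG hearts, and 12.6, 15.02, 21.6 and 16.7 CPM in PBS hearts. The libraries other than Upy-PEG replicate 1 overlapped across the groups. For Eif2ak2 the log2 fold change was 0.23 ± 0.23 (adjusted p = 0.751), and −0.09 ± 0.16 without replicate 1. Bst2 had 18.8, 45.8, 38.2 and 24.4 CPM in Upy-PEG + antimiR-195 hearts, 43.3, 24.4, 22.5 and 26.2 CPM in Upy-PEG hearts, and 23.8, 16.7, 22.4 and 21.2 CPM in PBS hearts. A gel library with antimiR-195 was highest here, and the log2 fold change of Upy-PEG over PBS was 0.47 ± 0.26 (adjusted p = 0.495). The other effectors in this role were Cmpk2, a nucleotide kinase next to Rsad2 on chromosome 12, Trim30a, and Mx2, which the annotation used lists as a polymorphic pseudogene. Of the 28 genes that Upy-PEG replicate 1 led, Mx2 was the one it led by the least, with 4.91 CPM against 4.70 CPM in PBS replicate 3.

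In the following 8 induced genes Upy-PEG replicate 1 was again the highest library. Rtp4, a chaperone of receptors at the cell membrane, ranged from 10.5 to 17.4 CPM in Upy-PEG + antimiR-195, 13.4 to 29.7 in Upy-PEG and 9.93 to 14.2 in PBS hearts. Trim30a, a ubiquitin ligase, ranged from 15.5 to 20.7, 17.9 to 37.3 and 15.1 to 23.02 CPM in these groups. Cmpk2 ranged from 8.60 to 12.6, 10.9 to 22.5 and 10.5 to 14.4 CPM, with all 3 groups overlapping, as they did in the others. Oasl2 had 13.9 to 18.96 CPM in Upy-PEG + antimiR-195, 16.6 to 50.4 in Upy-PEG and 13.1 to 28.4 in PBS hearts, and Xaf1, which promotes cell death, had 10.997 to 14.6, 8.69 to 21.5 and 9.55 to 14.3 CPM. Without Upy-PEG replicate 1, no Upy-PEG library exceeded the highest PBS library in Cmpk2, Oasl2 or Xaf1. Oasl1, Oas1a and Ifi44 reached 8.11, 10.3 and 13.1 CPM in Upy-PEG replicate 1, where no other library exceeded 5.28, 6.97 and 7.31 CPM.

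The 4 nucleic acid sensors had a median log2 ratio of Upy-PEG replicate 1 to the next library of 0.93, against 0.61 over the 21 effectors. Zbp1, a sensor of Z-form nucleic acid that can start necroptosis, had 3.85, 7.36, 5.82 and 7.58 CPM in Upy-PEG + antimiR-195 hearts, 21.5, 6.44, 5.44 and 7.46 CPM in Upy-PEG hearts, and 2.28, 3.73, 6.24 and 5.65 CPM in PBS hearts. Upy-PEG replicate 1 was 2.82-fold above the next library, the largest gap of the 31 genes. The log2 fold change of Upy-PEG over PBS was 1.20 ± 0.43 (adjusted p = 0.227), and 0.54 ± 0.31 without replicate 1 (adjusted p = 0.701). Ifih1 had 12.2, 8.30, 8.70 and 12.1 CPM in Upy-PEG + antimiR-195 hearts, 24.5, 12.9, 9.96 and 12.4 CPM in Upy-PEG hearts, and 11.1, 11.5, 14.1 and 12.3 CPM in PBS hearts. Its log2 fold change was 0.29 ± 0.24 (adjusted p = 0.687), and −0.06 ± 0.17 without replicate 1, when the Upy-PEG and PBS hearts overlapped. Ddx58 ranged from 17.9 to 23.1 CPM in Upy-PEG + antimiR-195, 19.7 to 42.1 in Upy-PEG and 19.3 to 22.3 in PBS hearts.

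Dhx58 (LGP2), which lacks the signalling domains of the other RIG-I-like receptors and modulates them, is described here because, after the values were seen, it was the gene in which Upy-PEG and PBS hearts did not overlap. It had 4.13, 3.96, 3.52 and 4.49 CPM in Upy-PEG + antimiR-195 hearts, 12.4, 5.95, 5.16 and 5.21 CPM in Upy-PEG hearts, and 3.29, 3.56, 4.95 and 4.62 CPM in PBS hearts. Every Upy-PEG heart lay above every PBS heart and above every heart with antimiR-195, also without replicate 1. The log2 fold change of Upy-PEG over PBS was 0.81 ± 0.26 (edgeR adjusted p = 0.186), and 0.41 ± 0.17 without replicate 1 (adjusted p = 0.533). An antisense gene, Dhx58os, overlaps it on the opposite strand. The library kit keeps strand, but whether reads were counted by strand is not given in the sources used here. The same limit holds for Irf7, Eif2ak2, Parp9, Rtp4, Oasl1, Trim30a and Ifi35, which also overlap a gene on the opposite strand.

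The 3 transcription factors carry the signal to the nucleus and amplify it. Irf7, which is induced by interferon and in turn induces interferon-α genes, had 16.6, 24.2, 25.2 and 24.9 CPM in Upy-PEG + antimiR-195 hearts, 46.6, 22.1, 21.1 and 25.04 CPM in Upy-PEG hearts, and 15.8, 15.7, 24.4 and 19.8 CPM in PBS hearts. Stat2 had 18.7, 18.8, 24.9 and 30.96 CPM in Upy-PEG + antimiR-195 hearts, 70.1, 23.7, 23.7 and 31.9 CPM in Upy-PEG hearts, and 25.5, 29.01, 35.7 and 24.8 CPM in PBS hearts. Irf7 was low in PBS replicates 1 and 2 and in Upy-PEG + antimiR-195 replicate 1, while the lowest Stat2 values were in replicates 1 and 2 of the Upy-PEG + antimiR-195 group. The log2 fold change of Upy-PEG over PBS was 0.61 ± 0.24 for Irf7 (adjusted p = 0.287) and 0.38 ± 0.30 for Stat2 (adjusted p = 0.671). Without replicate 1, Stat2 stood at −0.11 ± 0.19. Irf9 ranged from 18.3 to 26.8 CPM in Upy-PEG + antimiR-195, 23.3 to 51.2 in Upy-PEG and 21.04 to 31.3 in PBS hearts. The ADP-ribosyltransferases Parp9 and Parp14 reached 41.1 and 80.3 CPM in Upy-PEG replicate 1, where no other library exceeded 27.3 and 52.3 CPM. Irf9 overlaps Rnf31 on the same strand, so reads in the shared stretch cannot be assigned to 1 of them.

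**Figure D3:**
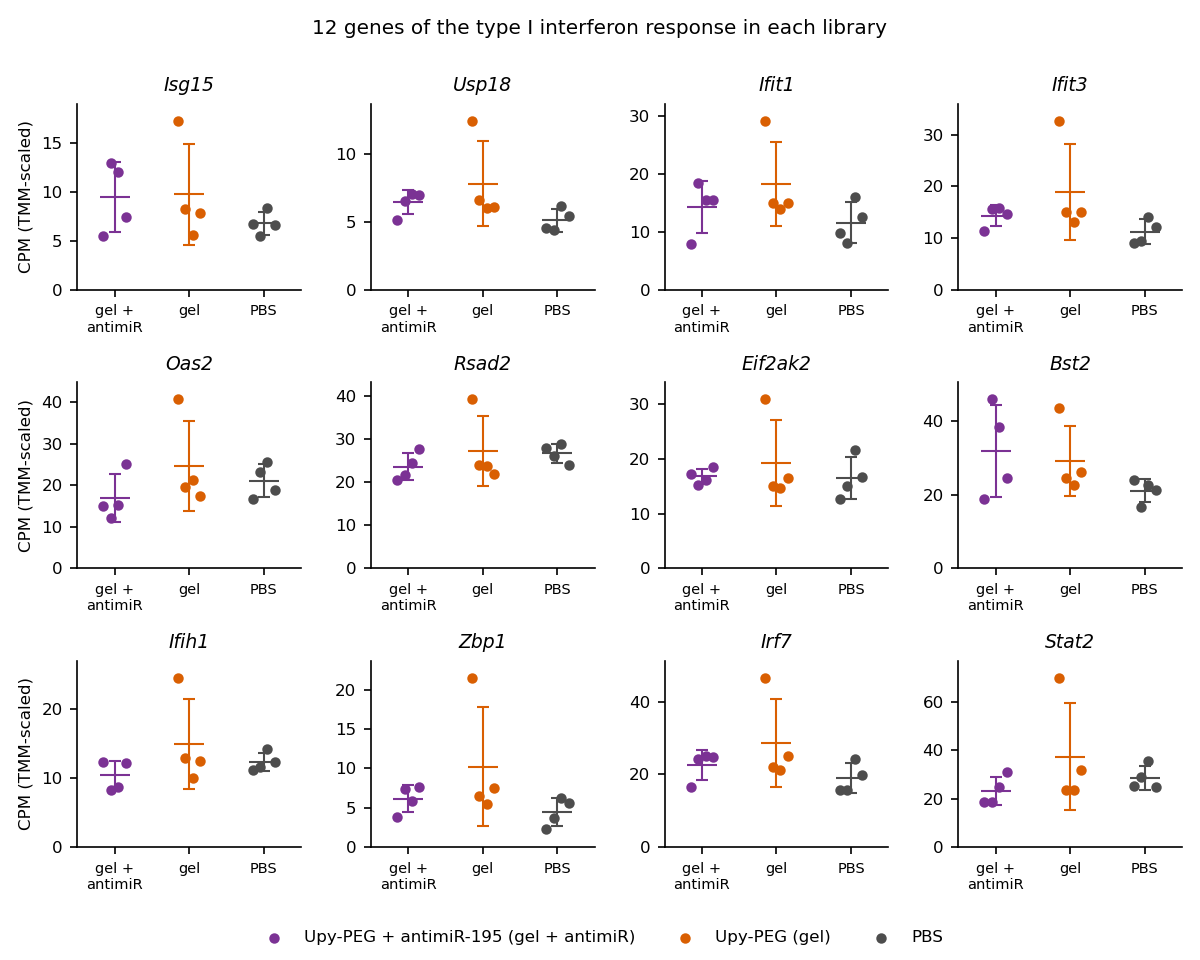
CPM of 12 of the genes, chosen by role, in each library (points), with the group mean and SD (bar, n = 4 each); groups run from Upy-PEG + antimiR-195 through Upy-PEG to PBS. In 11 of the 12 panels the highest point is Upy-PEG replicate 1, and in Bst2 it is Upy-PEG + antimiR-195 replicate 2.

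The second comparison asks what antimiR-195 adds to the gel. In Upy-PEG + antimiR-195 hearts, 28 of the 31 genes had a mean below that of Upy-PEG hearts and 3 above it, Bst2, Ifi27l2a and Ifi35. Of all tested genes, 49.2% were above. The median log2 fold change over the 31 was −0.40, against −0.01 over all tested genes. edgeR called 0 of 31 genes and 0% of all tested genes, and DESeq2 called 0 of the 31 and 0.0543% of all. At an unadjusted p under 0.05, 5 of the 31 were lower (Cmpk2, Ddx58, Dhx58, Ifih1 and Stat2) and 0 higher, with 6.4% of all tested genes lower and 6.67% higher at that level. This comparison and the first share the Upy-PEG libraries, replicate 1 among them.

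Without Upy-PEG replicate 1, 12 of the 31 genes were higher in Upy-PEG + antimiR-195 hearts (49.7% of all genes), and the median was −0.03. Dhx58 alone remained lower at an unadjusted p under 0.05, 1 of 31 beside 2.79% of all genes. The count of 5 moved to between 1 and 13 as each of the 8 libraries was left out. It was 2, 1, 1 and 8 without Upy-PEG + antimiR-195 replicates 1, 2, 3 and 4, and 10, 13 and 8 without Upy-PEG replicates 2, 3 and 4. No share of all genes is given beside these last counts, so they are no result about the 31. The log2 fold change of Dhx58 was −0.84 ± 0.27 (edgeR adjusted p = 0.364) with all libraries, and −0.44 ± 0.17 without Upy-PEG replicate 1 (adjusted p = 0.86). It was the 1 gene of the 31 in which these groups did not overlap, as in 2.46% of all tested genes, where the group with antimiR-195 was wholly lower.

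Of the 12 genes chosen by role, the largest differences of Upy-PEG + antimiR-195 from Upy-PEG were those of Zbp1 (log2 fold change −0.73 ± 0.42, adjusted p = 0.426), Stat2 (−0.68 ± 0.31, adjusted p = 0.374), Oas2 (−0.55 ± 0.27, adjusted p = 0.389) and Ifih1 (−0.53 ± 0.24, adjusted p = 0.374). Ifit3 had −0.40 ± 0.26, Ifit1 −0.35 ± 0.29, Irf7 −0.34 ± 0.24, Usp18 −0.28 ± 0.23, Rsad2 −0.21 ± 0.17 and Eif2ak2 −0.20 ± 0.23. Isg15 had −0.05 ± 0.33 and Bst2 0.13 ± 0.26, and the adjusted p of these 8 ran from 0.467 to 0.953. Without Upy-PEG replicate 1 the values of Zbp1, Stat2, Oas2 and Ifih1 were −0.07 ± 0.31, −0.18 ± 0.19, −0.20 ± 0.22 and −0.18 ± 0.17.

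The third comparison sets gel with antimiR-195 against saline and does not use the Upy-PEG libraries as a group. Here 19 of the 31 genes were higher in Upy-PEG + antimiR-195 hearts, near the 50.8% of all tested genes that were. The median log2 fold change was 0.06, against 0.01 over all tested genes, and it turned negative with limma voom (−0.07) and without PBS replicate 1 or PBS replicate 2 (−0.01 in both). edgeR called 0 of 31 and 0% of all genes, and DESeq2 called 0 of the 31 and 0.213% of all. At an unadjusted p under 0.05, 3 of the 31 were higher (Bst2, Ifi27l2a and Ifi35) and 0 lower, with 8.65% of all tested genes higher and 7.89% lower. The count of 3 moved to 1 without PBS replicate 2, without Upy-PEG + antimiR-195 replicate 2 and without replicate 3 of that group. No share of all genes is given for those fits.

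These 3 of 31 genes (9.68%) are near the share of all tested genes, so the count is no result about the list. They were singled out after their values were seen, and their values are given as a description. Ifi27l2a, a small protein induced by interferon, had 36.3, 76.5, 61.5 and 48.99 CPM in Upy-PEG + antimiR-195 hearts, 58.5, 35.5, 45.99 and 48.6 CPM in Upy-PEG hearts, and 23.8, 30.8, 35.4 and 37.2 CPM in PBS hearts. Ifi35 had 19.7, 35.1, 32.8 and 22.3 CPM in Upy-PEG + antimiR-195 hearts, 25.5, 20.9, 22.5 and 20.8 CPM in Upy-PEG hearts, and 23.1, 17.4, 19.6 and 22.5 CPM in PBS hearts. As with Bst2 above, replicates 2 and 3 of the antimiR-195 group carried the highest values of that group, and replicate 1 lay within the range of PBS. Over PBS, the log2 fold change was 0.81 ± 0.22 for Ifi27l2a (adjusted p = 0.253), 0.59 ± 0.26 for Bst2 (adjusted p = 0.289) and 0.41 ± 0.17 for Ifi35 (adjusted p = 0.283). With replicates 2 and 3 left out together these were 0.43 ± 0.21, 0.05 ± 0.24 and 0.03 ± 0.13, and since those are the highest libraries of their group in these genes, smaller values follow from leaving them out. In that fit 0 of the 31 were higher at an unadjusted p under 0.05, beside 2.2% of all genes, and 18 of the 31 were higher, beside 48.9% of all genes.

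Replicates 2 and 3 also differed from the other libraries by gene length. They had 0.921 and 0.893 multi-mapped alignments per counted read, where the other libraries had 0.579 to 0.749. In the comparison with PBS, the log2 fold changes of the 31 genes were lower for longer genes, with a Pearson r with log2 length of −0.75 over the 31 genes and −0.42 over all tested genes, a description across genes that share libraries. Of the 15 shortest genes, from 463 to 3272 bases, 13 were higher in Upy-PEG + antimiR-195 hearts, with a median log2 fold change of 0.31. Of the 15 longest, from 3879 to 9306 bases, 5 were higher, with a median of −0.07. Against Upy-PEG hearts, the Pearson r was −0.62 over the 31 genes and −0.36 over all tested genes. There, 3 of the 15 shortest genes and 0 of the 15 longest were higher, with medians of −0.30 and −0.44. Library by library, the mean of the 15 longest minus that of the 15 shortest was 0.08, −0.53, −0.23 and 0.04 in Upy-PEG + antimiR-195 replicates 1 to 4. It was 0.13, −0.04, −0.12 and −0.03 in Upy-PEG and 0.08, 0.30, 0.20 and 0.12 in PBS replicates 1 to 4. The shortest genes of the list are Ifi27l2a, Isg15 and Bst2, so the part of length in their values was not tested apart from that of antimiR-195.

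**Figure D4:**
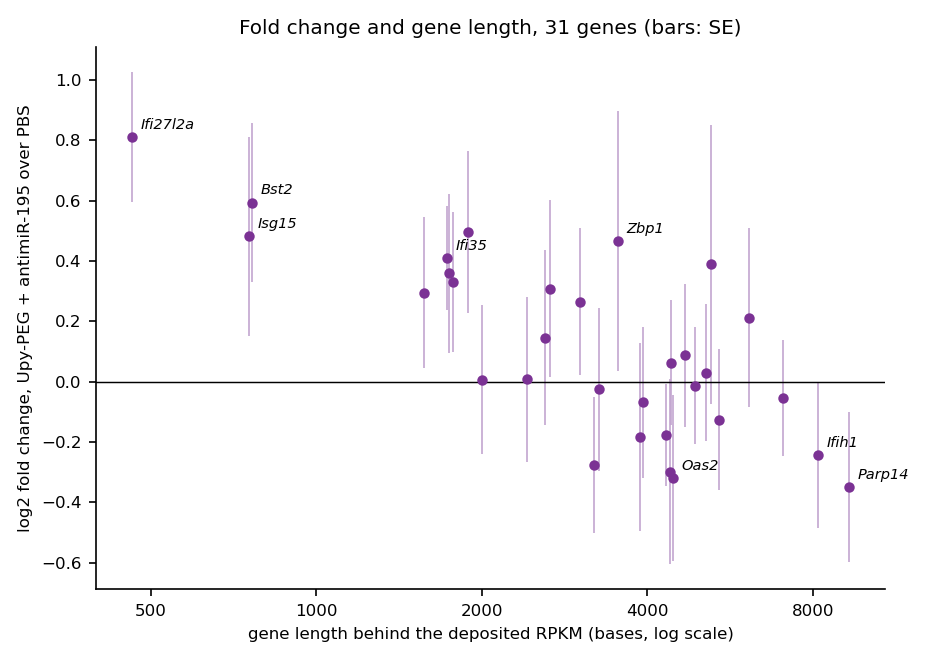
Log2 fold change of Upy-PEG + antimiR-195 over PBS (vertical, with SE as bars) against gene length in bases (horizontal, log scale) for the 31 genes. The short genes at the left, Ifi27l2a, Bst2 and Isg15, and the longer Oas1a have the 4 highest values, and the longest gene, Parp14, has the lowest value.

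For the 12 genes chosen by role, the log2 fold change of Upy-PEG + antimiR-195 over PBS ran from −0.32 ± 0.28 for Oas2 (adjusted p = 0.524) to 0.59 ± 0.26 for Bst2. Isg15 had 0.48 ± 0.33 (adjusted p = 0.426), Zbp1 0.47 ± 0.43 (adjusted p = 0.552), Ifit3 0.36 ± 0.26 (adjusted p = 0.454) and Usp18 0.33 ± 0.23 (adjusted p = 0.434). Ifit1 had 0.31 ± 0.29, Irf7 0.26 ± 0.24 and Eif2ak2 0.03 ± 0.23. Rsad2, Ifih1 and Stat2 had −0.18 ± 0.17, −0.24 ± 0.24 and −0.30 ± 0.31. With replicates 2 and 3 left out, Isg15 stood at −0.06 ± 0.36 and Ifit1 at 0.03 ± 0.36.

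Upstream of the 31 genes, interferon transcripts were at or near 0 in every group. Of 21 interferon genes listed, 17 were in the table, 11 of these had 0 counts in all 12 libraries, and the 17 had 16 counts in all. Ifnb1, interferon-β, had 4 counts and Ifng, interferon-γ, had 3 counts over the 12 libraries, and both had 0 in Upy-PEG replicate 1. A count of 0 in a library allows up to 3 counts, or 0.0991 to 0.134 CPM depending on the library, for counting error only. Among 10 receptor and kinase genes, 5 were higher and 5 lower in Upy-PEG than in PBS hearts, with a median log2 fold change of −0.03, and 0 passed the threshold. Ifnar1 ranged from 32.5 to 39.0 CPM in Upy-PEG + antimiR-195, 37.4 to 49.6 in Upy-PEG and 32.4 to 37.9 in PBS hearts, and Ifnar2 from 24.6 to 37.2, 29.5 to 31.5 and 24.6 to 31.1 CPM.

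Among the other sensors and adaptors, 14 of 18 were higher in Upy-PEG than in PBS hearts, 9 of them at an unadjusted p under 0.05, and 13 of 18 without replicate 1, 5 of them at that level, with medians of 0.39 and 0.28. The shares of all tested genes higher at that level were 9.33% with and 6.17% without replicate 1. The 5 were Irf5, the endosomal receptor Tlr7, its chaperone Unc93b1, the adaptor Myd88 and Ifi204. Of 9 tested negative regulators, 6 were higher, and 4 of 9 without replicate 1; Socs3 and Ptpn6 had an unadjusted p under 0.05 in both fits. A further 53 interferon-induced genes outside the 31 gave a like picture. In Upy-PEG against PBS hearts 44 of 53 were higher, 17 of them at an unadjusted p under 0.05, with a median of 0.26. Without replicate 1, 38 of 53 were higher, 2 of them at that level (Epsti1 and Slfn2), with a median of 0.13. In Upy-PEG + antimiR-195 against Upy-PEG hearts, 15 of 18 sensors and adaptors, 9 of 9 negative regulators and 42 of 53 other induced genes were lower, with medians of −0.30, −0.34 and −0.23. Against PBS hearts, the same group had 12 of 18, 2 of 9 and 32 of 53 higher, with medians of 0.08, −0.10 and 0.11. With all 12 libraries, edgeR called no gene of these lists in any of the 3 comparisons. Without Upy-PEG + antimiR-195 replicates 2 and 3, edgeR called Irf5 and Epsti1 higher in Upy-PEG than in PBS hearts, as did DESeq2 and limma voom with all libraries. limma voom also called Unc93b1, Tlr7 and Socs3 higher and the receptor gene Ifnlr1 lower there. These genes were named after their values were seen.

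The genes that stood furthest apart in Upy-PEG replicate 1 were outside the 31. On a list of interferon-γ genes, among them immunity-related GTPases, 17 of 17 tested genes were highest in that library, beside 17.2% of all tested genes. Their median log2 ratio to the next library was 0.77, against 0.66 over the 31. The 18 genes of that list in the table summed to 1289 CPM there and to 205 to 303 CPM in the other 11 libraries. In Upy-PEG against PBS hearts 17 of 17 were higher, 6 of them at an unadjusted p under 0.05, with a median log2 fold change of 0.60. Without replicate 1 these were 10 of 17, 1 and 0.08. The shares of all tested genes higher at that level were 9.33% with and 6.17% without replicate 1. The 1 of 17 is near the latter share. In Upy-PEG + antimiR-195 against Upy-PEG hearts 17 of 17 were lower, with a median of −0.68. Against PBS hearts 10 of 17 were higher in Upy-PEG + antimiR-195, with a median of 0.03. Of all tested genes, 49.2% and 50.8% were higher in these comparisons. The 5 genes with the largest gaps by the rule were BC023105, Gm4841, F830016B08Rik, Gm12185 and Igtp. BC023105 had 85.1 CPM in that library and 0.293 to 1.77 CPM elsewhere, and Gm4841 had 85.4 CPM against 0.603 to 2.99 CPM. F830016B08Rik had 75.9 CPM against 0.342 to 3.83 CPM, and Gm12185 had 15.97 CPM against 0.232 to 0.813 CPM. Igtp, a GTPase of the interferon-γ response, had 254 CPM against 12.7 to 26.8 CPM. These descriptions set 1 library beside 11 and have no replicate check.

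**Figure D5:**
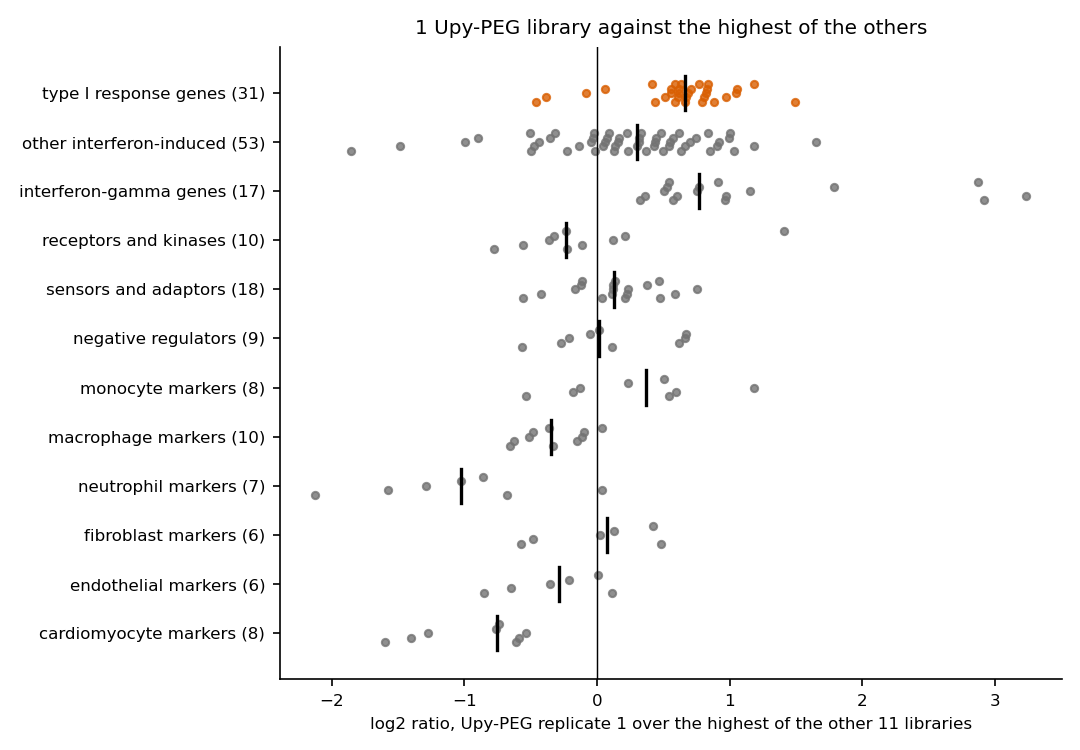
Each point is a gene, placed by the log2 ratio of Upy-PEG replicate 1 to the highest of the other 11 libraries, with lists as rows (number of tested genes in brackets) and black lines as medians. The 31 genes have a median of 0.66 and the interferon-γ genes one of 0.77. The cardiomyocyte, macrophage, neutrophil and endothelial markers and the receptors and kinases have medians below 0.

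Markers of several cell types also differed between the groups, and in bulk tissue more cells of a type and more RNA per cell cannot be told apart. The tissue label held: 8 cardiomyocyte markers summed to 44597 to 70671 CPM in every library. Their lowest sum, 44597 CPM, was in Upy-PEG replicate 1. All 10 macrophage markers were higher in Upy-PEG than in PBS hearts, 9 at an unadjusted p under 0.05, where 9.33% of all tested genes were. Their median log2 fold change was 0.75 with or without replicate 1. edgeR called 0 of the 10 with all 12 libraries, but 8 without Upy-PEG + antimiR-195 replicates 2 and 3, while limma voom called 8 and DESeq2 called 6 with all libraries. None of these fits called any of the 31 interferon genes. Their sums were 882 to 1813 CPM in Upy-PEG + antimiR-195, 1277 to 1858 in Upy-PEG and 660 to 1019 in PBS hearts, and Upy-PEG replicate 1, with 1459 CPM, was not the highest. The 8 monocyte markers summed to 112 to 143, 150 to 208 and 104 to 153 CPM, highest in Upy-PEG replicate 1. Upy-PEG replicate 2 had 183 CPM, and 5 of the 8 markers were highest in Upy-PEG replicate 1. The sum of the 6 fibroblast markers was also highest there, with 6418 CPM against 2166 to 5420 CPM, and 4 of the 6 were highest in that library. The 8 markers of plasmacytoid dendritic cells summed to 9.51 to 13.4 CPM in Upy-PEG + antimiR-195, 11.2 to 20.01 in Upy-PEG and 8.11 to 9.45 in PBS hearts, highest in Upy-PEG replicate 1. Most of that sum was Lair1, which like Runx2 was higher in Upy-PEG than in PBS hearts at an unadjusted p under 0.05 with and without replicate 1. The more restricted markers Siglech and Ccr9 had at most 14 and 8 counts in any library. The 10 T and NK cell markers summed to 2.32 to 4.13 CPM in Upy-PEG + antimiR-195, 2.14 to 4.97 in Upy-PEG and 1.82 to 3.41 in PBS hearts, and Cd3e had at most 11 counts in a library. The 8 neutrophil markers summed to 12.4 to 34.1, 27.8 to 40.0 and 11.8 to 35.2 CPM in the same groups, and the 6 endothelial markers to 606 to 866, 702 to 860 and 766 to 937 CPM. In Upy-PEG against PBS hearts, 8 of 8 monocyte, 7 of 7 tested neutrophil and 6 of 6 fibroblast markers were also higher. Of these, 5, 2 and 3 had an unadjusted p under 0.05, so higher values were not particular to macrophage markers. All 8 cardiomyocyte and 6 endothelial markers were lower there, 1 and 2 of them at that level. The part of these cell types in the interferon response was not tested.

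Across libraries the 31 genes moved together. The median Pearson r over their 465 pairs was 0.76 over 12 libraries and 0.47 over the 11 libraries other than Upy-PEG replicate 1. This is a description of genes that share libraries and their depth, with no value for other pairs of genes beside it.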

How the data were processed

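The authors deposited 1 count per gene for each of 12 libraries and a table of RPKM. Per the labels' protocols, RNA came from snap-frozen ventricle by TRIzol, and the library kit (TruSeq, stranded) selects polyadenylated RNA. The submitters' processing notes name STAR, HTSeq, DESeq and GRCm38. Versions, annotation and strand setting are not given in the sources used here. Multi-mapped reads are outside the deposited counts, so near-identical copies lose reads. Symbols came from GENCODE M21 on GRCm38.

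Counts were tested with edgeR 4.0.16 (R 4.3.3) on all 12 libraries: filterByExpr, TMM, quasi-likelihood F with 9 residual degrees of freedom, Benjamini-Hochberg over 14770 genes, threshold 0.05. The SE is the log2 fold change divided by the root of F. CPM are TMM-scaled. The scripts were tested on simulated data. Alternatives were RLE, other filters, DESeq2 1.42.0, limma 3.58.1 (voom with sample weights; log2 RPKM with a pseudocount of 0.1 or 1), 8 libraries only, a threshold of 0.10, and leaving out libraries; library size alone was chosen after the data were seen.

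The 31 genes and all lists were chosen with earlier results of these data known, so lists have counts and medians and no test. Fold changes are given for 12 genes chosen by role. Genes outside the list are those furthest apart in the library that led most of the 31, with a mean of at least 1 CPM, and any pathway gene past the threshold in edgeR with all 12 libraries, of which there was none; list members named otherwise, with Dhx58, Ifi27l2a and Ifi35, were chosen after their values were seen.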

Additional observations from a re-analysis of the deposited data

Results flagged for a closer look

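By Dixon's ratio within groups of 4 (above its 95% critical value), 19 of 93 gene and group combinations had a library far from the other 3. No share over all tested genes is given beside it, so the count is no result about the 31. Genes of 1 library are also not independent. Of the 19, 16 were Upy-PEG replicate 1 at the high end of its group. Earlier results of these data had already shown that library to stand apart, so this count restates that description and is no test of it. In CPM these were Ifit1 (29.2), Ifit2 (41.1), Ifit3 (32.7), Rsad2 (39.3), Oas2 (40.7), Mx2 (4.91), Ifi44 (13.1), Rtp4 (29.7), Cmpk2 (22.5), Eif2ak2 (30.8), Dhx58 (12.4), Zbp1 (21.5), Irf7 (46.6), Irf9 (51.2), Parp14 (80.3) and Usp18 (12.5). Upy-PEG + antimiR-195 replicate 1 was at the low end of its group in Oasl2 (13.9 CPM) and Irf7 (16.6 CPM). PBS replicate 3 was at the high end of its group in Ifi44 (6.54 CPM).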

How the results depend on the processing

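No setting called any of the 31 genes in any comparison, 0 in each. Over all genes, the count called in Upy-PEG against PBS was 0 in edgeR with all libraries, 349 without Upy-PEG + antimiR-195 replicates 2 and 3, 172 with the 8 libraries compared, 155 at a threshold of 0.10, 69 without a filter, 46 without Upy-PEG replicate 3, 506 in DESeq2 and 918 in limma voom. The median of the 31 ranged from 0.19 (limma voom) to 0.58 (library size alone) over the other settings in Upy-PEG against PBS, and from 0.12 (without Upy-PEG replicate 1) to 0.60 (without PBS replicate 3) as libraries were left out. In Upy-PEG + antimiR-195 against Upy-PEG these ranges were −0.58 to −0.23 and −0.56 to −0.03, and in Upy-PEG + antimiR-195 against PBS −0.07 to 0.07 and −0.01 to 0.20. Library size alone moved the median of all genes to −0.16 in Upy-PEG + antimiR-195 against Upy-PEG, where the median of the 31 was −0.58. Over the fold changes of the 12 genes chosen by role, 583 of 612 alternatives kept their sign and none passed the threshold (lowest adjusted p 0.0827). Signs turned in 29. In Upy-PEG against PBS, limma voom gave −0.11 for Eif2ak2, −0.10 for Oas2, −0.13 for Rsad2 and −0.071 for Stat2. With libraries left out, these ran from −0.095 to 0.38 (Eif2ak2), −0.12 to 0.36 (Oas2), −0.19 to 0.12 (Rsad2) and −0.11 to 0.56 (Stat2), and Ifih1 ran from −0.057 to 0.45. In Upy-PEG + antimiR-195 against Upy-PEG, Bst2 was −0.040 with limma voom, −0.058 on log2(RPKM + 0.1), −0.056 on log2(RPKM + 1) and −0.43 with Upy-PEG + antimiR-195 replicates 2 and 3 left out, and Eif2ak2 was 0.073 with limma voom. With libraries left out, the ranges were −0.12 to 0.38 for Bst2, −0.32 to 0.13 for Eif2ak2, −0.25 to 0.38 for Isg15, −0.30 to 0.019 for Rsad2 and −0.41 to 0.035 for Usp18. In Upy-PEG + antimiR-195 against PBS, Eif2ak2 was −0.035 with limma voom and −0.0030 on log2(RPKM + 1), with a range of −0.081 to 0.19 as libraries were left out. Ifit1 was −0.070 with limma voom there, and Isg15 was −0.058 with replicates 2 and 3 left out. The cause was not tested in any of these. By RPKM, 29 genes in place of 28 were highest in Upy-PEG replicate 1. In the 250 bases before the start alone, 11 genes in place of 14 held GAAANNGAA. No paired analysis was possible because the labels give no replicate numbers. Counts as low as 28 limit the precision of the least expressed genes.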
